A study of Mus musculus with 8 samples.

Results

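Oligodendrocytes wrap axons of the brain in myelin, and the 40 genes described here follow that lineage from its precursors to the finished sheath. They were taken by gene symbol from the table of estimated read counts, which lists 18983 genes. Each of the 40 was found, and each was among the 15186 genes left by a filter on low counts. By role they comprised 6 precursor genes, 3 genes of committed and newly formed oligodendrocytes and 5 transcription factors. A further 14 encode parts of the sheath and its supports, and 12 encode lipid enzymes, carriers, other enzymes, a chaperone and connexins.

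The libraries were made from polyadenylated RNA of the central amygdala, a forebrain nucleus of fear and feeding circuits, in 129SV mice 7 months old. One group of 4 libraries followed 20 weeks of high fat diet, and the other group of 4 followed 20 weeks of normal chow. No mutant allele or further agent is named for either group, and the labels state neither sex nor whether a library is 1 animal or a pool. The p-values therefore measure the spread between these libraries, which may be technical. Libraries are named by the number in their titles (1, 2, 5 or 8). Totals were 17451111 to 19562368 counts per library.

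Markers of the labelled tissue were present in each library but at unequal levels. Penk, the enkephalin precursor gene, ran from 20.2 CPM (read counts scaled to a common library size) in high fat replicate 1 to 796 CPM in chow replicate 1. Sst, the somatostatin gene, ran from 223 to 463 CPM. Markers of excitatory neurons of the neighbouring basolateral amygdala and cortex also varied, and Slc17a7, their vesicular glutamate transporter, spanned 81.8 CPM (chow replicate 8) to 1724 CPM (high fat replicate 1). The libraries of 1 diet thus differed from each other in regional markers, and those values stand beside the oligodendrocyte results below.

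As background, precursors carry the growth factor receptor encoded by Pdgfra and the proteoglycan encoded by Cspg4. On commitment they pass through a short stage marked by Gpr17, Enpp6 and Bcas1. The factors Olig1, Olig2 and Sox10 run through the lineage, while Myrf switches on the sheath genes once a cell stops dividing. Mature cells are most abundant in fibre tracts, so the amount of tract in a piece of tissue bears on the level of their messages. In bulk tissue, fewer cells of a type and less RNA per cell cannot be told apart.

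Promoters of 5 members are shown because the results turn on these genes. Mog, Pllp and Apod passed the test between diets once chow replicate 2 was left out, Opalin had the most negative fold, and Pdgfra varied least between libraries. RefSeq windows for GRCm38.p6, each from 250 bases before a listed start to 50 after it, were found for 30 of the 40 members. Genes with several starts have several windows (41 in all for the 30), and the first listed was used. Windows of Mog (chr17:37023349-37023648, minus strand), Pllp (chr8:94696193-94696492, minus strand), Apod (chr16:31314759-31315058, minus strand), Opalin (chr19:41077064-41077363, minus strand) and Pdgfra (chr5:75152001-75152300, plus strand) follow, 5′ to 3′. The Pdgfra window is at a start inside the outer bounds of the gene (chr5:75151322-75198206), not at its outer end. Capitals mark letters that match a searched motif on either strand.
Mog: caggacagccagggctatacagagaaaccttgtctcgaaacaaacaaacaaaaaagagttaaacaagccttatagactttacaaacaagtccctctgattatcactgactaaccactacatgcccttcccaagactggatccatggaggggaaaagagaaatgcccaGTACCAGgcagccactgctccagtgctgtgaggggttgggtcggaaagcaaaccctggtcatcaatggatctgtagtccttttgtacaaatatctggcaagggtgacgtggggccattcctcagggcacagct
Pllp: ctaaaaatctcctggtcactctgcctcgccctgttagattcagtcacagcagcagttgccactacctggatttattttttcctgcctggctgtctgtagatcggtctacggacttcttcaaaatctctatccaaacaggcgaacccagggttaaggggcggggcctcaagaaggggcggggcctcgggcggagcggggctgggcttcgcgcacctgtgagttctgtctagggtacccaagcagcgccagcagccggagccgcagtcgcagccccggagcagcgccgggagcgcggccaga
Apod: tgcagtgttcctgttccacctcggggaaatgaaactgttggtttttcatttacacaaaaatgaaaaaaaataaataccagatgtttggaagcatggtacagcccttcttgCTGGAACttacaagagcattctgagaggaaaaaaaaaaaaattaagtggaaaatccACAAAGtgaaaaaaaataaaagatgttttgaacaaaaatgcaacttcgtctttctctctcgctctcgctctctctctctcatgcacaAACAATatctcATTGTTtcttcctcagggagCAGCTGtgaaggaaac
Opalin: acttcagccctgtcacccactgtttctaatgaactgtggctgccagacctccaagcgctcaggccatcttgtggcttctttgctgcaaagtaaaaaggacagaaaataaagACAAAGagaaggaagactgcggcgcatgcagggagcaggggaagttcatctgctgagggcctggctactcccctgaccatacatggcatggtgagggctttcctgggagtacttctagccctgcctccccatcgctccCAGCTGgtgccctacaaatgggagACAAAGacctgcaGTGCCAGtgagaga
Pdgfra: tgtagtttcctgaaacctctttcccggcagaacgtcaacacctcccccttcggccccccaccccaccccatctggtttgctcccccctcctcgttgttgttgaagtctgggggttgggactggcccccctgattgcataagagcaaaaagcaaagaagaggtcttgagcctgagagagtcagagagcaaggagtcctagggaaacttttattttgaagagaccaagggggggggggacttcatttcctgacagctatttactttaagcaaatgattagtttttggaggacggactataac
The motifs were AACAAT and ACAAAG of SOX factors, CTGGNAC of MYRF, CAGCTG of E-box factors such as the OLIG proteins, and TATAAA of the TATA box. In the printed windows no 2 matches overlapped.

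Matches in these windows were unequal. The Mog window held 1 CTGGNAC match, 83 bases before the start, and the Opalin window held 4 matches, with ACAAAG 139 bases before the start. In the Apod window there were 5, with CTGGNAC 140 and ACAAAG 84 bases before the start. Neither the Pllp nor the Pdgfra window held these letters. Over the 30 member windows, AACAAT was found in 7 (23.3%, against 10.9% of 27025 windows of 1 per gene) and ACAAAG in 8 (26.7% against 18.7%). CTGGNAC was in 8 (26.7% against 19.2%), CAGCTG in 6 (20.0% against 16.1%) and TATAAA in 2 (6.67% against 14.2%). A match is only a run of letters and was not tested as a binding site.

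The members held very different parts of the RNA in different libraries. Their joint share was 0.724%, 0.742%, 0.524% and 1.05% of all counts in replicates 1, 2, 5 and 8 of the high fat group. In chow replicates 1, 2, 5 and 8 they took 1.94%, 0.420%, 2.12% and 1.55%. Chow replicate 2 was therefore the lowest of the 8 libraries and the other 3 chow libraries were the highest, so the diets overlapped through 1 library. Mbp, the gene of myelin basic protein, alone took from 0.170% in chow replicate 2 to 1.06% in chow replicate 5. Without Mbp the members took 0.307% to 0.554% of the counts with high fat diet and 0.249% to 1.06% with chow.

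**Figure D1:**
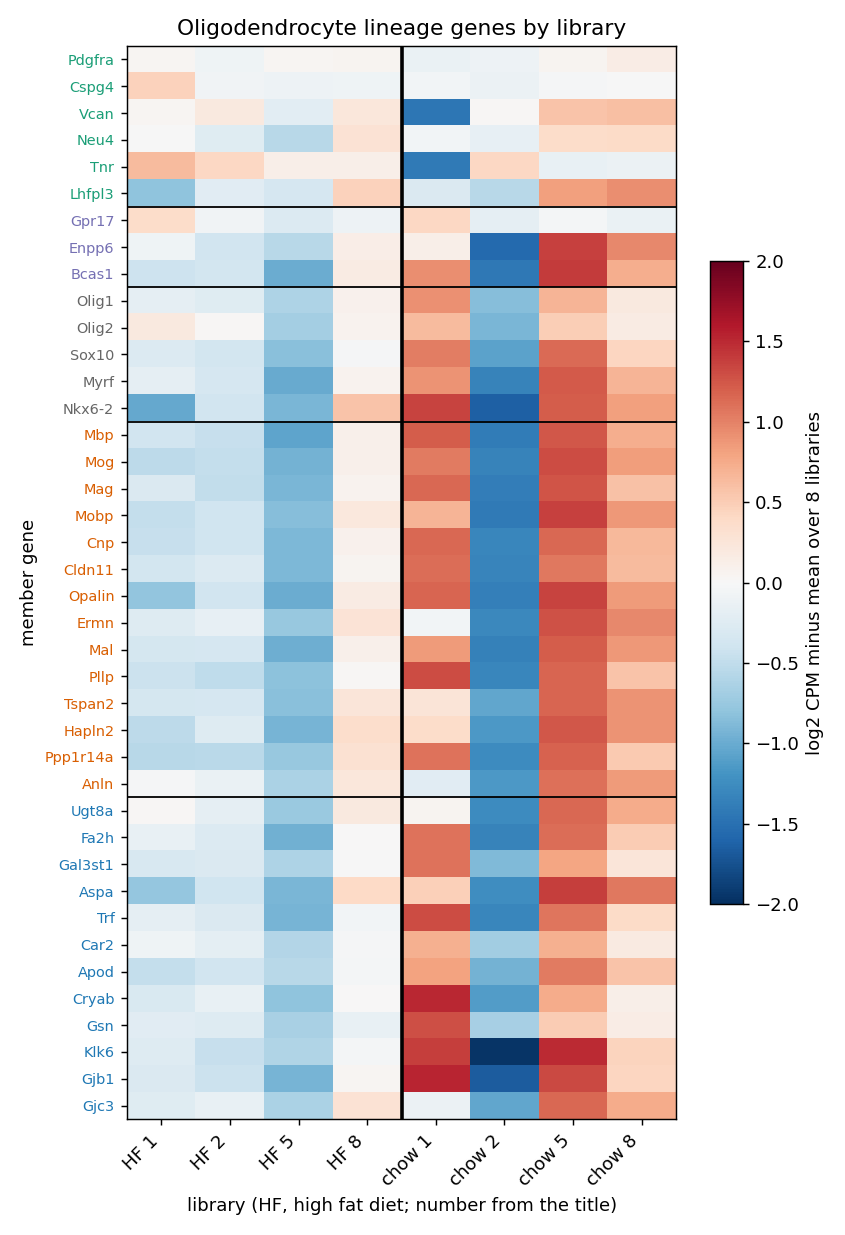
Log2 CPM of each of the 40 members (rows, by role from precursor genes at the top) in each library (columns), as the difference from that gene's mean over the 8 libraries. Most rows below the precursor genes are blue in chow replicate 2 and red in chow replicates 1, 5 and 8, where 27 of the 34 members lay above the 4 high fat libraries.

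The same order of libraries recurred across most members outside the precursor group. Chow replicate 2 had the lowest level of 33 of the 34 members that are not precursor genes, whereas it was lowest for 11.4% of all genes tested. The exception was Gpr17, which was lowest in high fat replicate 5. For 27 of the 34, chow replicates 1, 5 and 8 each lay above the 4 high fat libraries, a pattern shown by 9.98% of all genes tested. Within the high fat diet, replicate 8 was highest for 32 of the 34, beside 30.7% of all genes, and replicate 5 lowest for 33, beside 22.9%. For 0 of the 40 members were the diets free of overlap, where 0.718% of all genes had non-overlapping diets with high fat lower and 0.645% with high fat higher.

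The diets were compared with edgeR's quasi-likelihood test over the 15186 genes, and the threshold was a Benjamini-Hochberg adjusted p under 0.05. No member passed it, and the smallest adjusted p among the 40 was 0.753. The share of all genes called was 0% lower and 0% higher. Folds are log2 values of high fat diet over chow, so a negative fold means a lower level with high fat diet. Of the 40 members, 37 had a negative fold, against 51.8% of all genes, and their median fold was -0.89, against -0.01 over all genes. At an unadjusted p under 0.05 there were 7 members with a negative fold (Opalin, Apod, Mog, Pllp, Sox10, Mbp and Cnp), where 2.63% of all genes were lower at that level. At that p 0 members had a positive fold, and 1.65% of all genes did. DESeq2 put 0 members past the threshold and 21 at an unadjusted p under 0.05 with a negative fold (3.88% of all genes), and limma-voom put 0 past it and 0 under 0.05 (1.28%).

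**Figure D2:**
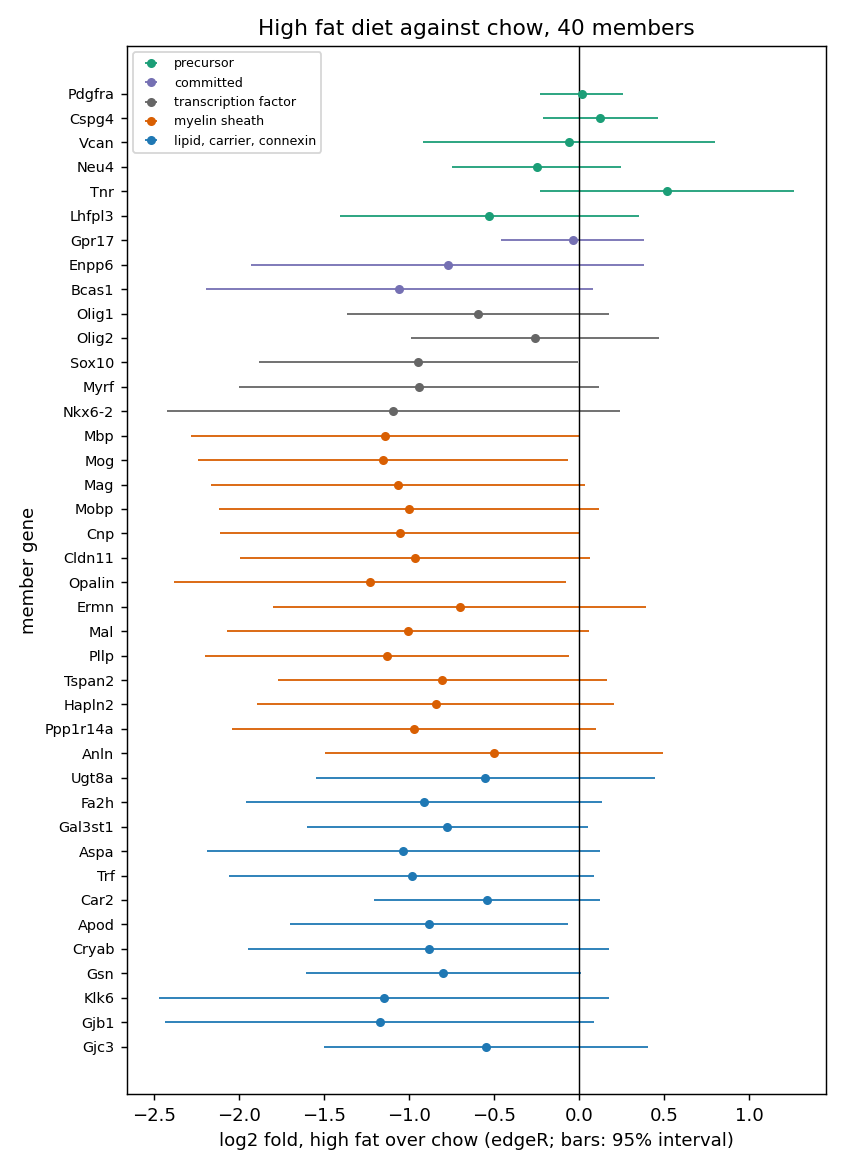
Log2 fold of each member, high fat diet over chow, from edgeR (points) with its 95% interval (bars), coloured by role. Sheath genes lie between -1.23 and -0.50 and precursor genes between -0.53 and 0.52, and the intervals of most members include 0.

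Messages of the sheath proteins had negative folds in 14 of 14 cases, from -1.23 for Opalin to -0.50 for Anln, with a median of -1.005. With chow replicates 5 and 8 left out together, 2 of the 14 turned positive, at a log2 fold of Anln of 0.51 and a log2 fold of Ermn of 0.36. Mog encodes a glycoprotein of the outer face of myelin. In the order of replicates 1, 2, 5 and 8, its level was 58.8, 61.2, 44.2 and 91.2 CPM with high fat diet and 174, 33.5, 209 and 152 CPM with chow, and values below keep this order. Each high fat value lay below chow replicates 1, 5 and 8 and above chow replicate 2. The means were 63.9 ± 19.7 and 142 ± 76.2 CPM (SD, n = 4 each), and the fold was -1.16 ± 0.48 (SE; 95% interval -2.24 to -0.07; adjusted p = 0.753 by edgeR).

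Opalin, a transmembrane protein of the oligodendrocyte surface, behaved alike at a lower level. With high fat diet it was at 25.7, 34.1, 22.2 and 50.1 CPM, and with chow at 99.6, 17.2, 113 and 80.5 CPM. Its fold of -1.23 ± 0.51 (SE; adjusted p = 0.753 by edgeR) was the most negative of the 40. Pllp, which encodes plasmolipin, a small membrane protein of myelin, was at 60.6 to 109 CPM with high fat diet. In chow it was at 265, 43.5, 242 and 160.2 CPM, the same order in which replicate 2 alone stood below the high fat libraries. Its fold was -1.13 ± 0.47 (SE).

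The most abundant member was Mbp, whose protein compacts the inner faces of the sheath. By length, the authors' deposited mean TPM (a level that allows for transcript length) put Mbp at 4386 in the high fat group and 9199 in chow. Next by the chow mean came Cnp, a nucleotide phosphodiesterase that keeps channels of cytoplasm open in myelin, at 386 and 755 TPM. The precursor genes stood far lower on that scale, from 7.61 TPM for Cspg4 to 53.8 TPM for Lhfpl3 with chow. In CPM, Mbp was lowest in chow replicate 2 (1698) and highest in chow replicate 5 (10626), a ratio of 6.26. Its fold was -1.14 ± 0.50 (SE) and that of Cnp -1.06 ± 0.47.

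Sheath genes divided by their level in chow replicate 1. Mag, an adhesion protein that faces the axon, Cldn11, the claudin of the tight junctions in myelin, and Mal, a raft proteolipid, had folds of -1.06 ± 0.49, -0.97 ± 0.45 and -1.01 ± 0.47 (SE), and chow replicates 1, 5 and 8 each exceeded the high fat libraries. For Mobp, a basic protein of compact myelin, and Ppp1r14a, a phosphatase inhibitor, the folds were -1.001 ± 0.49 and -0.97 ± 0.47. Ermn encodes ermin, an actin-binding protein of late myelination. It was at 104, 111, 73.7 and 151 CPM with high fat diet and at 119.8, 51.1, 302 and 243 CPM with chow, so chow replicate 1 lay within the high fat range. Anln, the actin-binding anillin, was at 59.4 CPM in chow replicate 1, below high fat replicates 1, 2 and 8, while chow replicates 5 and 8 had 149.5 and 125 CPM. Tspan2, a tetraspanin, and Hapln2, a link protein of the matrix at nodes of Ranvier, had folds of -0.81 ± 0.43 and -0.84 ± 0.46, with chow replicate 1 just above the highest high fat library for both.

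**Figure D3:**
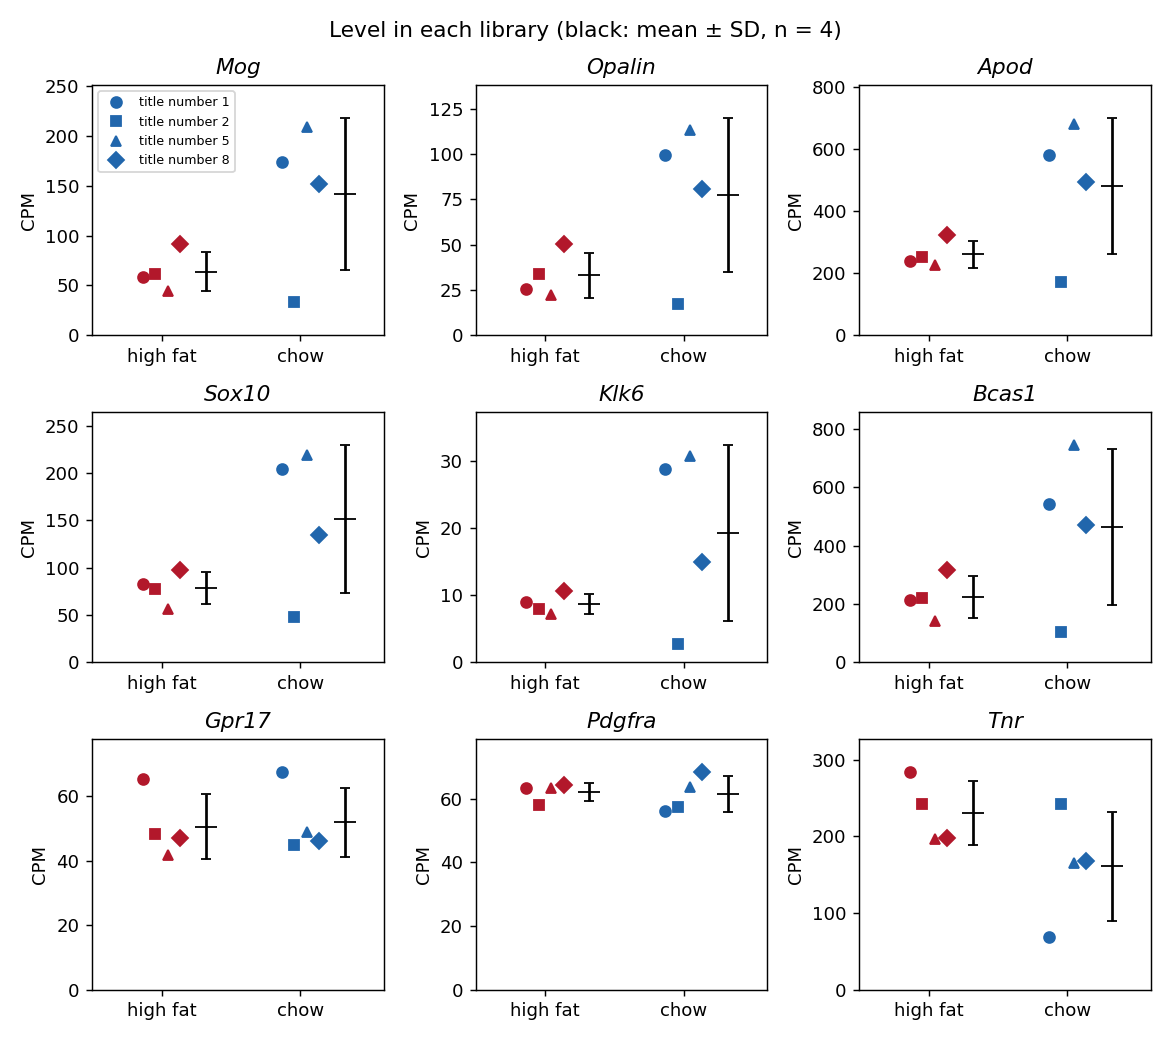
CPM of 9 members in each library (symbols by title number in both diets, red for high fat diet and blue for chow), with the mean and SD of the 4 libraries of a diet in black. Mog, Opalin, Apod, Sox10, Klk6 and Bcas1 are lowest in chow replicate 2 and higher in the other chow libraries than in any high fat library, while Gpr17, Pdgfra and Tnr are not.

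Lipid enzymes and the remaining genes of mature cells had negative folds in 12 of 12 cases, with a median of -0.89. Without chow replicates 5 and 8, 2 of the 12 turned positive, at a log2 fold of Ugt8a of 0.32 and a log2 fold of Gjc3 of 0.36. Apod encodes apolipoprotein D, a lipid carrier. It was at 239, 254, 226 and 322 CPM with high fat diet and at 579, 173, 679 and 493 CPM with chow. Its high fat libraries were close together, with an SD of 42.8 CPM against 219 CPM in chow, and its fold of -0.89 ± 0.36 (SE; adjusted p = 0.753 by edgeR) had the smallest unadjusted p of the members, 0.0368. Of the enzymes that build myelin galactolipids, Fa2h, the fatty acid 2-hydroxylase, and Gal3st1, the sulfotransferase that makes sulfatide, had -0.91 ± 0.46 and -0.78 ± 0.36. Ugt8a, the galactosyltransferase before Gal3st1 in that pathway, had -0.55 ± 0.44, and it was at 70.0 CPM in chow replicate 1, inside the high fat range of 40.3 to 77.0 CPM. Aspa, which frees acetate from N-acetylaspartate, had -1.04 ± 0.51.

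Among the other proteins of mature cells, Klk6 had the widest spread. Klk6, a secreted serine protease, was at 9.07, 7.92, 7.18 and 10.6 CPM with high fat diet and at 28.7, 2.71, 30.8 and 14.9 CPM with chow. Its highest library was 11.4 times its lowest, the largest such ratio of the 40, and the fold was -1.15 ± 0.58 (SE). Gjb1 and Gjc3 encode connexins, the protein family of gap junctions. Gjb1 spanned a 9.21-fold range within chow, 8.94 CPM in replicate 2 and 82.3 CPM in replicate 1, while Gjc3 was highest in chow replicate 5, at 213 CPM, and stood at 89.0 CPM in chow replicate 1. Trf, the iron carrier transferrin, Cryab, a small heat shock protein, Gsn, the actin-severing gelsolin, and Car2, a carbonic anhydrase, had folds of -0.99 ± 0.47, -0.88 ± 0.47, -0.80 ± 0.36 and -0.54 ± 0.29. Cryab and Gsn were highest in chow replicate 1, at 454 and 168 CPM, beside 267 and 97.7 CPM in chow replicate 5.

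Transcription factors of the lineage had negative folds in 5 of 5 cases, from -0.26 to -1.09. Sox10 was at 82.6, 77.4, 56.3 and 98.1 CPM with high fat diet and at 204, 47.5, 219 and 135 CPM with chow (fold -0.95 ± 0.41, SE; adjusted p = 0.753 by edgeR). Myrf had -0.94 ± 0.47, and Nkx6-2, a homeobox factor of maturing oligodendrocytes, had -1.09 ± 0.59 and spanned 6.24 to 49.9 CPM within chow. Olig1 and Olig2, which precursors also express, had smaller values of -0.60 ± 0.34 and -0.26 ± 0.32. Olig2 in chow replicate 8, at 56.5 CPM, lay below the 58.0 CPM of high fat replicate 1.

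The genes of committed cells did not share 1 pattern. Bcas1, a protein of early myelinating cells that mature cells retain, followed the sheath genes, at 142 to 318 CPM with high fat diet and at 541, 105, 745 and 469.6 CPM with chow. Its fold was -1.06 ± 0.50 (SE). Enpp6, a choline phosphodiesterase of newly formed cells, was at 12.2 CPM in chow replicate 1, within the high fat range of 7.62 to 12.3 CPM, beside 29.1 and 21.8 CPM for chow replicates 5 and 8. Its fold was -0.77 ± 0.51, and the log2 fold of Enpp6 was 0.30 without chow replicates 5 and 8. Gpr17, a G protein-coupled receptor of committed precursors, was at 65.4, 48.4, 41.7 and 47.3 CPM with high fat diet and at 67.6, 44.9, 49.0 and 46.3 CPM with chow. Its diets overlapped almost fully, replicate 1 was highest in both, and the fold was -0.04 ± 0.19 (95% interval -0.46 to 0.38).

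Precursor genes split evenly in sign, 3 positive and 3 negative, with a median fold of -0.02. Pdgfra was at 63.3, 57.9, 63.3 and 64.2 CPM with high fat diet and at 56.3, 57.5, 63.8 and 68.4 CPM with chow. No other member varied so little over the 8 libraries (SD 0.10 of log2 CPM), and its fold was 0.02 ± 0.11 (95% interval -0.23 to 0.26). Cspg4 lay between 23.4 and 25.3 CPM in 7 libraries and at 35.0 CPM in high fat replicate 1 (fold 0.13 ± 0.15). Neu4, a sialidase, had -0.25 ± 0.22.

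Of the precursor group, Vcan and Tnr were far lower in chow replicate 1 than in the other libraries. Chow replicate 1 was also the lowest library for 5160 of the 15186 genes tested. Cspg4, another proteoglycan gene, was at 24.4 CPM in chow replicate 1, so the low level was not shared by all matrix genes of the group. Vcan, the versican proteoglycan, was at 7.40 CPM there and between 17.6 and 31.0 CPM in the other libraries. Tnr, the tenascin-R gene, was at 68.6 CPM there, at 242, 165 and 168 CPM in chow replicates 2, 5 and 8, and at 284, 242, 197 and 198 CPM with high fat diet. It had the most positive fold of the members, 0.52 ± 0.33 (95% interval -0.23 to 1.26). Neurons also make tenascin-R, so Tnr is not specific to precursors. Lhfpl3, a membrane protein gene, reached 89.1 and 96.2 CPM in chow replicates 5 and 8 and stood at 28.8 to 69.4 CPM elsewhere, with a fold of -0.53 ± 0.39, and the log2 fold of Lhfpl3 was 0.26 without chow replicates 5 and 8.

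Variation between libraries was unequal between the role groups. The median SD of log2 CPM over the 8 libraries was 0.92 for sheath genes, 0.80 for the lipid, carrier and connexin group, 0.81 for the factors, 0.90 for the 3 genes of committed cells and 0.48 for precursor genes, and it was 0.31 over all genes tested.

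Leaving out 1 library decided which members were called. Without chow replicate 2, edgeR called 3 members lower with high fat diet, Apod (-1.16, adjusted p = 0.0401), Mog (-1.48, adjusted p = 0.0467) and Pllp (-1.45, adjusted p = 0.0481), where 0.157% of all genes were called lower and 0.601% higher. At an unadjusted p under 0.05 it had 32 of the 40 lower, beside 10.6% of all genes, and 1 higher (Tnr), beside 8.87%. Next by edgeR came Cnp, Klk6, Opalin, Cldn11, Mal and Mag, with an adjusted p of 0.0506, 0.0511, 0.0513, 0.0513, 0.0519 and 0.0520, and further members lay close above them. Leaving out any other single library gave 0 called members, and between 35 and 38 of the 40 folds were negative. With chow replicates 5 and 8 left out together, 0 members were called, 0 reached an unadjusted p under 0.05 (2.41% of all genes were lower at it), 29 of 40 folds were negative, and the median fold was -0.50.

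Further genes of the lineage were read from lists by stage. Of 32 further genes of mature oligodendrocytes, 31 had a negative fold, 8 at an unadjusted p under 0.05, and their median was -0.86. Arsg, a lysosomal sulfatase, and S1pr5, a sphingosine 1-phosphate receptor, had the smallest p, with -1.33 ± 0.48 and -1.10 ± 0.44 (SE; adjusted p = 0.753 each by edgeR). Arsg was at 20.9 to 37.8 CPM with high fat diet and at 142, 22.9, 77.8 and 50.1 CPM with chow. Of the 32, St18, a zinc finger factor, was the one with a positive fold, 0.47 ± 0.38. Tppp, a tubulin polymerization protein, and Omg, a myelin glycoprotein that neurons also make, had folds of -0.03 ± 0.14 and -0.12 ± 0.15; these genes were chosen after their values were seen. Of 10 further precursor genes, 5 were negative and 5 positive with a median of -0.02. Cacng4, an auxiliary subunit of AMPA receptors, and Nkx2-2, a homeobox factor, had -0.70 ± 0.32 and -0.82 ± 0.37.

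Signals and regulators of oligodendrocyte differentiation showed no common sign. Of 19 such genes, 9 were negative and 10 positive, 0 reached an unadjusted p under 0.05, and the median fold was 0.06. Tcf7l2, a WNT pathway factor of newly formed oligodendrocytes that thalamic neurons also express, was at 9.01, 14.6, 9.25 and 32.7 CPM with high fat diet and at 24.2, 9.38, 66.4 and 59.3 CPM with chow (fold -1.28 ± 0.63, SE). Jag1, a Notch ligand, had 0.33 ± 0.18. Pdgfa, which encodes the ligand of the Pdgfra receptor, had 0.14 ± 0.12 and ran from 61.2 to 80.7 CPM. Erbb3, a neuregulin receptor, had -0.66 ± 0.40 and Lingo1, an inhibitor of myelination that neurons express, 0.67 ± 0.38. Pdgfa, Erbb3 and Lingo1 were chosen after their values were seen.

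Outside every list, 8 genes were closest to the sheath genes over the 8 libraries, by the Pearson r of their log2 CPM with the mean deviation of the 14 sheath genes. They were Galnt6 (r = 0.999), Pde8a (0.996), Phldb1 (0.995), Sgk2 (0.994), Spg20 (0.993), Dock5 (0.993), Prr18 (0.992) and Gatm (0.992), over n = 8 libraries. Each gene shares these libraries and their scaling factors with the sheath genes, so the r are a description. Galnt6, a glycosyltransferase that starts mucin-type O-glycans, was at 17.1, 17.6, 11.2 and 25.3 CPM with high fat diet and at 46.6, 8.005, 60.0 and 43.4 CPM with chow. Gatm, the first enzyme of creatine synthesis, was at 115 to 219 CPM with high fat diet and 92.5 to 442 CPM with chow.

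Markers of other cells moved between the same libraries. Excitatory neuron markers had positive folds in 7 of 7 cases, with a median of 1.39, and their summed level was 953 to 2784 CPM with high fat diet and 179.9 to 1964 CPM with chow. Chow replicate 2 was the chow library at 1964 CPM, and chow replicates 1, 5 and 8 were at 414, 327 and 179.9 CPM, below each high fat library, where most myelin genes were above. Nptx1, a neuronal pentraxin, and Neurod2, a cortical factor, had 1.39 ± 0.56 and 1.66 ± 0.90 (SE). Striatal spiny neuron markers were negative in 6 of 6 cases, at 153 to 553 CPM with high fat diet and 205 to 1546 CPM with chow, with Scn4b and Pde10a at -2.12 ± 0.79 and -0.90 ± 0.34. Thalamic markers were negative in 7 of 7, at 78.7 to 184 and 120.5 to 569.8 CPM, with Tnnt1 and Ramp3 at -3.62 ± 1.02 and -2.36 ± 0.73. Of the markers in these 3 lists, Shox2, a thalamic one, was at 0 in 1 library, chow replicate 1. The part of these markers in the myelin values was not tested.

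**Figure D4:**
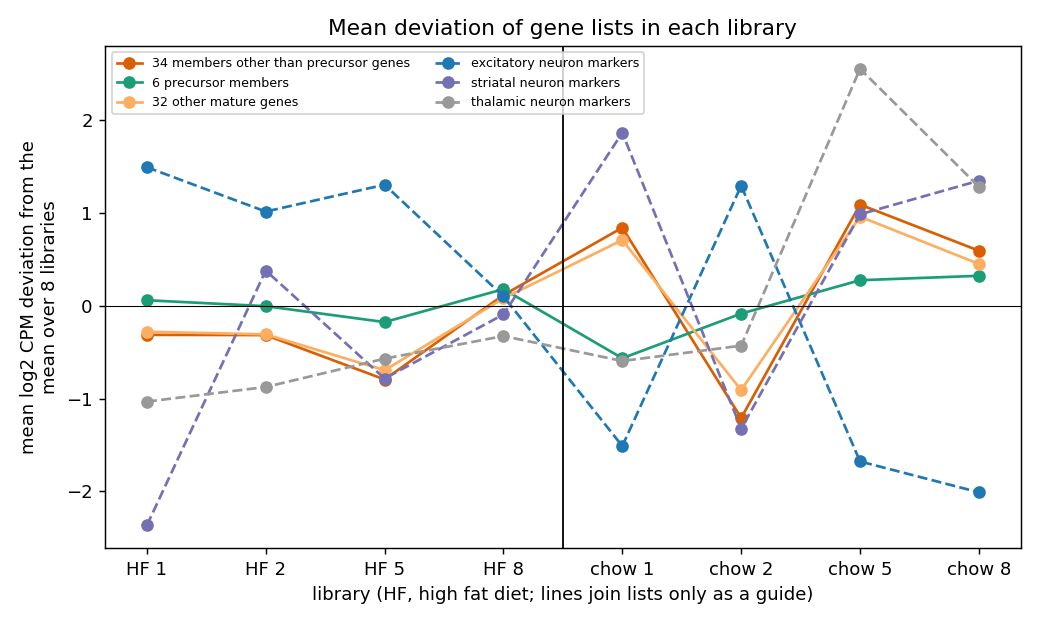
Mean difference of log2 CPM from the mean over the 8 libraries (y axis) for 3 oligodendrocyte lists (solid lines) and 3 lists of regional neuron markers (dashed lines) in each library. The 34 members outside the precursor group lie at -1.21 in chow replicate 2 and at 0.84, 1.09 and 0.59 in chow replicates 1, 5 and 8, where the excitatory markers lie at 1.29, -1.51, -1.68 and -2.01.

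Other glial and vascular markers, and those of the central amygdala, choroid plexus and ependyma, spanned unequal ranges. Microglia markers were negative in 8 of 8 cases with a median of -0.40, and summed to 275 to 348 CPM with high fat diet and 279 to 540.5 CPM with chow. Their examples Cd68, found in lysosomes of phagocytes, and C1qb, part of complement C1q, gave -0.60 ± 0.25 and -0.61 ± 0.26 (SE). Astrocyte markers were negative in 5 of 8 with a median of -0.12, and Aldh1l1 and S100b, the latter also made by oligodendrocytes, had -0.27 ± 0.14 and -0.49 ± 0.27. Endothelial markers were negative in 5 of 6, with Vwf and Ly6c1 at -0.46 ± 0.21 and -0.34 ± 0.22. General neuron markers were negative in 3 of 8, with Nefh, the heavy neurofilament of large axons, at -0.79 ± 0.40 and Syt1, a synaptic vesicle protein, at 0.44 ± 0.22. Central amygdala markers were negative in 8 of 10, and their sum was 435 to 1237 CPM with high fat diet and 530 to 2912 CPM with chow. Among them, Prkcd and Ppp1r1b had folds of -2.54 ± 0.81 and -1.79 ± 0.78. Prkcd peaked in chow replicate 5 (273 CPM), followed by chow replicate 8 (58.4 CPM), and did not exceed 25.9 CPM elsewhere. The thalamic markers Tnnt1 and Ramp3 were likewise highest in chow replicate 5, then chow replicate 8. Ppp1r1b peaked in chow replicate 1 (1262 CPM), like the striatal markers Scn4b and Adora2a. Which region's cells gave the Prkcd and Ppp1r1b values was not tested. Choroid plexus and ependymal markers were negative in 7 of 7, with Dynlrb2 and Foxj1 at -2.03 ± 0.91 and -1.60 ± 0.73, and were highest in chow replicate 1. The sum of these markers was 217 to 3095 CPM with high fat diet and 117 to 6674 CPM with chow.

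Markers of Schwann cells, which myelinate peripheral nerve, were checked because they share myelin genes with oligodendrocytes. Pmp2, a fatty acid binding protein of peripheral myelin, did not exceed 0.112 CPM in any library. Of 7 markers 4 were tested, 2 of them negative. Pmp22, which central cells also express, had -0.88 ± 0.35 and Ncmap -1.08 ± 0.46 (SE), with 18.4 to 69.9 CPM for Pmp22 and 0.448 to 2.08 CPM for Ncmap.

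Within the lineage, chow replicates 1 and 5 had near-equal totals of member counts but a different mix. Of the 34 members outside the precursor group, 13 were highest in chow replicate 1 and 21 in chow replicate 5. Over all genes tested these shares were 33.2% and 13.9%. The difference between these libraries (log2 CPM, chow replicate 1 minus chow replicate 5) ran from -2.02 for Vcan to 0.78 for Gsn. It was larger on the negative side for many members of low GC content. Ugt8a and Ermn, at 38.0% GC each, differed by -1.09 and -1.33, and Cldn11 and Cnp, at 50.9% and 55.8% GC, differed by 0.07 and 0.00. Hapln2 went against this order, with 59.5% GC and a difference of -0.87.

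Across the 40 members, Pearson's r between this difference and GC content was 0.70, and with log2 transcript length it was -0.54. Across 14654 tested genes with a coding transcript the values were 0.46 and -0.35, so the relation was not limited to the lineage. Genes are not independent replicates, and these r describe 1 pair of libraries. Between chow replicates 8 and 5 the r with GC content was -0.38 for the members and -0.07 for all genes, and with log2 length it was 0.68 and 0.01. Between chow replicates 2 and 5 the r with GC content was -0.03 for the members, and with log2 length it was 0.60 for the members and 0.08 for all genes. Over the 34 members outside the precursor group, the r with log2 length was lower. It was 0.46 between chow replicates 8 and 5 and 0.16 between chow replicates 2 and 5, so the values for all 40 rest in part on the precursor genes. The 20 members under the median GC content of 51.8% had a median fold of -0.74 and the 20 above it -0.95. With each library's GC and length trend taken out in edgeR, a choice made after seeing the data, 0 members passed, 6 were lower at an unadjusted p under 0.05 (3.65% of all genes), 38 of 40 folds were negative, and the median fold was -0.85.

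**Figure D5:**
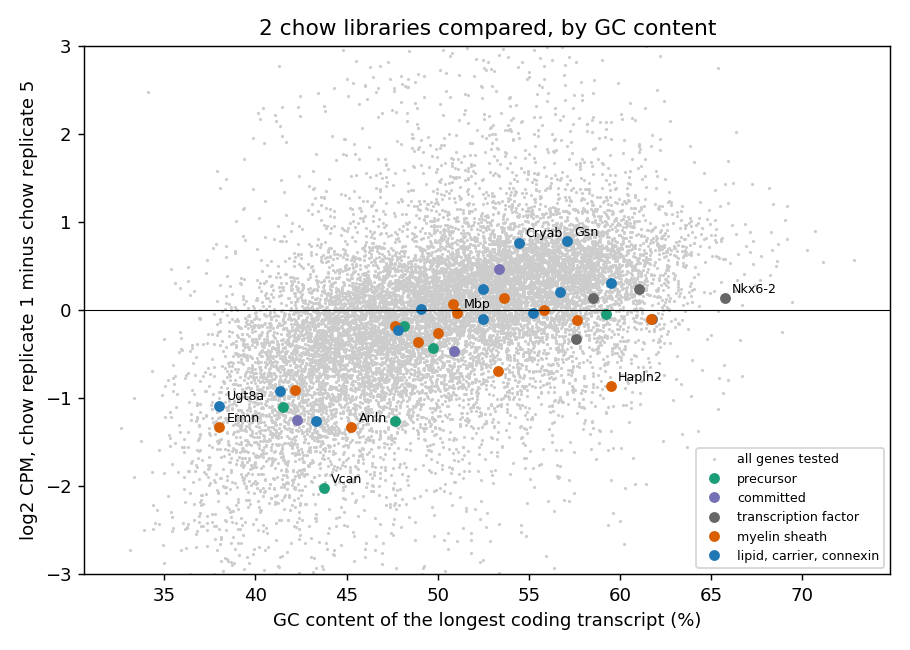
Difference in log2 CPM between chow replicates 1 and 5 (y axis) against the GC content of each gene's longest coding transcript in percent (x axis), for all genes tested (grey) and the 40 members (coloured by role). Members of low GC content such as Ugt8a and Ermn lie below 0, and 195 of 14654 genes lie beyond the plotted range of 3 either way.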

How the data were processed

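The authors deposited 1 table of estimated counts per gene for 8 libraries, whose values need not be whole. Bowtie2 2.2.5, RSEM 1.2.8 and mm10 appear in the submitters' processing notes with no role stated. The sources used here give neither annotation nor strand setting, so overlapping genes cannot be told apart. The deposited group means in FPKM were not used, and those in TPM are printed as the authors' values.

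Counts were rounded, filtered with filterByExpr and scaled by TMM factors, and tested between diets by edgeR 4.0.16 under R 4.3.3 (two-sided quasi-likelihood test, no covariate, p adjusted over 15186 genes). Each SE was taken as the absolute fold over the square root of its F statistic. Log2 CPM used a prior count of 2. The test was checked on simulated data with 200 changed genes. At an adjusted p under 0.05 it called 30 of 67 genes changed 2-fold, 56 of 67 changed 4-fold and 64 of 66 changed 8-fold. Of 14861 unchanged genes it called 10. The changed genes were picked at random from the filtered genes, and counts were drawn gene by gene, without swings shared between genes. The median SE of a fold was 0.21 over all genes tested, and 0.43 to 0.51 for the sheath genes. These rates therefore do not apply to the members. GC content and length are those of the longest coding transcript in GENCODE vM21 (GRCm38, as mm10).

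The members and lists were chosen with earlier results of these data known, so lists are described by counts and medians, not tested. Of each list that is not of members, the 2 genes with the smallest p are named. Alternatives were RLE and upper-quartile factors, other filters, DESeq2 1.42.0, limma-voom (limma 3.58.1) with and without quality weights, a surrogate variable (sva 3.50.0), a replicate block by title number, omission of libraries, an adjusted p under 0.1 and, added after seeing the data, a GC and length correction. Intervals cover the spread between these libraries. One marker gene is not reported here.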

Additional observations from a re-analysis of the deposited data

Results flagged for a closer look

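Among the 80 sets of 4 libraries (40 members in each diet), 3 had 1 library far from the other 3. The measure is the gap of the highest or lowest library to its nearest neighbour divided by the range of the 4, above Dixon's critical value. Chance flags about 1 in 20 such sets, so this number is no more than chance gives. Cspg4 was at 35.0 CPM in high fat replicate 1, next to 24.3 CPM (gap 0.956). Ppp1r14a was at 27.2 CPM in high fat replicate 8, next to 15.2 CPM (gap 0.850). Pdgfra was at 57.9 CPM in high fat replicate 2, next to 63.3 CPM (gap 0.846).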

How the results depend on the processing

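The count of members called at an adjusted p under 0.05 was 0 under every alternative run except without chow replicate 2, where it was 3 (range with 1 library left out 0 to 3), and over all genes it was 116 there (range 0 to 116). At an adjusted p under 0.1, most members passed without chow replicate 2. Members also passed 0.1 by limma-voom with sample quality weights, where the smallest adjusted p was 0.0675. The share of all genes under 0.1 is not given for these runs, so neither result can be set against it. Over the other runs the smallest adjusted p of a member was 0.596, by edgeR with the GC and length correction. The median fold of the members ran from -1.17 to -0.50 over the alternatives. At an unadjusted p under 0.05, 34 members were found by limma-voom with sample quality weights (33 lower, where 14.6% of all genes were lower), and 0 by limma-voom, with the surrogate variable, with the replicate block, and without high fat replicates 1, 2 or 5 or chow replicates 1, 5 or 8. Those quality weights were 0.0865 for chow replicate 1 and 0.421 for chow replicate 2, the lowest of the 8.

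The same title number does not mark a shared animal in the labels. Deviations from the diet means correlated at r = 0.01, -0.04, 0.04 and 0.39 over all tested genes for numbers 1, 2, 5 and 8. Pairs of unlike numbers ran from -0.56 to 0.32, so the value for number 8 was the highest of all pairs. Whether libraries with the same number share anything further was not tested. With the replicate block 0 members were called, 36 of 40 folds were negative and the median fold was -0.70.

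Some folds changed sign between settings, with no adjusted p under 0.05, and the cause was not tested. The log2 fold of Pdgfra was -0.023 with upper-quartile factors and with the surrogate variable, -0.11 with quality weights and -0.092 with the GC and length correction. The log2 fold of Gpr17 was 0.14 with the surrogate variable and 0.024 with quality weights, and the log2 fold of Olig2 0.044 with the former. The log2 fold of Vcan was 0.14 by limma-voom and 0.10 with the replicate block. With 1 library left out, folds ran from -0.031 to 0.071 for Pdgfra, -0.029 to 0.18 for Cspg4, -0.36 to 0.14 for Vcan and -0.18 to 0.11 for Gpr17. With chow replicates 5 and 8 left out together, Anln, Ermn, Gjc3, Ugt8a, Enpp6, Lhfpl3, Vcan and Neu4 were at 0.51, 0.36, 0.36, 0.32, 0.30, 0.26, 0.61 and 0.015, where the folds over all 8 libraries were -0.50, -0.70, -0.55, -0.55, -0.77, -0.53, -0.06 and -0.25. The biological coefficient of variation over all genes was 29.3%, and the SE of the sheath genes' folds was 0.43 to 0.51.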
